A study of Mus musculus with 8 samples.

Results

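Mitochondrial ribosomal proteins were followed in mouse neural stem cells kept at 5% or at 21% oxygen. Genes were taken by symbol alone, as every gene on the array named Mrpl or Mrps and a number, which gave 78 genes of the 37074 genes and transcripts the array measures. Of these, 49 carry a large subunit symbol and 29 a small subunit symbol. The cells came from OF-1 embryos at stage E13.5 and grew in serum-free medium under 5% CO2 for at least 10 days before RNA was taken. The 4 hypoxia cultures stood at 5% oxygen from isolation on and the 4 normoxia cultures at 21%. Each of the 4 experiments used other donors and ran both oxygen levels side by side, so that arrays of the same replicate number form a pair. Total RNA with an integrity number above 7 was hybridised to 1-colour expression arrays.

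The mitochondrial ribosome translates the few messages of mitochondrial DNA, all of which encode membrane subunits of the respiratory chain and ATP synthase. Its RNAs come from mitochondrial DNA, while every one of its proteins is encoded in the nucleus, made on cytosolic ribosomes and imported. Part of the proteins have bacterial counterparts and part are found only in mitochondrial ribosomes. Neural stem cells are known to draw much of their energy from glycolysis, and low oxygen is known to activate the HIF transcription factors, which raise glycolytic genes.

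No mitochondrial ribosomal protein gene passed the test between 5% and 21% oxygen. Of the 78 genes, 77 had a probe bright enough to be tested, 48 with a large and 29 with a small subunit symbol. At an adjusted p under 0.05 in limma with the replicate number as a block, 0 of the 77 rose and 0 fell, whereas 5.54% of the 26858 genes and transcripts tested did so, 4.24% upward and 1.29% downward. Without the block 0 of the 77 were called as well, beside 0.0894% of all genes. At an unadjusted p under 0.05 the block fit held 1 of the 77, Mrps2, against 19.4% of all genes, and the fit without the block held 0 against 8.03%. A setting with trended and robust moderation called 1 member, again Mrps2 and downward, beside 8.56% of all genes, 6.15% upward and 2.41% downward.

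The changes of the 77 genes, given throughout as log2 level at 5% minus log2 level at 21% oxygen, ran from -0.44 for Mrps2 to 0.23 for Mrpl45. Their median was -0.06, against 0.03 over all genes tested. Genes with a large subunit symbol had a median of -0.05 and those with a small subunit symbol -0.08. The latter included Mrps18a, Mrps30 and Mrps36, which are not small subunit proteins. In all, 51 genes had a value below 0 and 26 above it, so that 66.2% were lower, against 45.8% of all genes. Of the genes tested with a RefSeq symbol, as the members are, 48.7% were lower. Median scaling and quantile normalization each moved that share to 81.8%, with a median of -0.12 and -0.10. The share over all genes moved with them, to 54.5% and 54.1%, with medians of -0.028 and -0.023. Relative to all genes the members' median was -0.088 in the main scaling. Median scaling also subtracts 1 value per array, so it cannot change this difference. It was -0.077 under quantile normalization, -0.085 under cyclic loess and -0.132 with normexp. The size of the change without its sign had a median of 0.10, compared with 0.18 over all genes. The 95% interval of the change lay within 1.5-fold in either direction for 68 of the 77 genes, or 88.3%, against 53.8% of all genes, and within 2-fold for 77 of the 77, against 88.6%. In bulk RNA a lower level in every cell and a smaller share of cells with that level cannot be told apart.

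**Figure D1:**
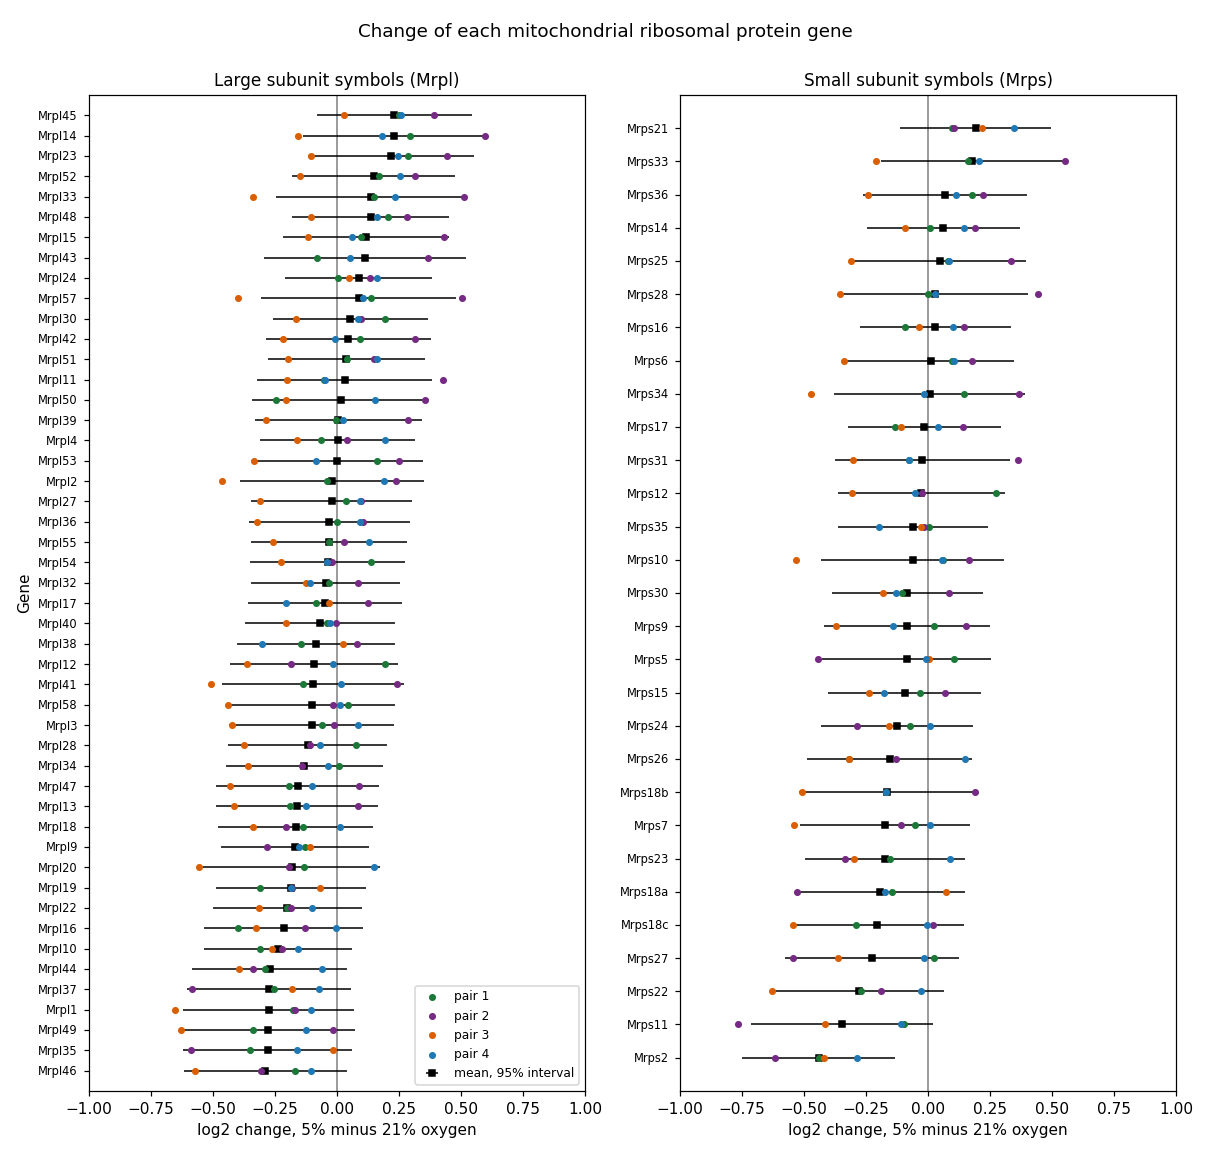
Change of each tested mitochondrial ribosomal protein gene, as log2 level at 5% minus 21% oxygen on the horizontal axis, with 1 row per gene, large subunit symbols on the left and small subunit symbols on the right. Coloured points are the 4 pairs of cultures, black squares the mean change and bars its 95% interval from the block fit. The interval of Mrps2 lies below 0, and pair 3 lies below 0 for 70 of the 76 genes with a value in it.

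The 4 pairs did not move together. The median change of the members was -0.04 in pair 1, 0.08 in pair 2, -0.30 in pair 3 and -0.003 in pair 4. All genes tested had medians of 0.03, 0.17, -0.13 and 0.05 in the same pairs, so the members lay below the array as a whole in each pair. In pair 3 the level was lower at 5% oxygen for 70 of 76 members, and without that pair the median of the members was 0.01, with 37 lower and 40 higher. Relative to the median of all genes, the members' median lay at -0.09 with the 4 pairs and at -0.06 without pair 3. Pair 3 was also the only pair in which the unscaled 75th percentile was higher on the hypoxia array, at 6781 against 5310. Whether this bears on the changes was not tested.

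Some genes kept 1 direction in every pair. A value below 0 in all 4 pairs was found for 15 members, or 19.5%, against 12.8% of all genes and 15.7% of the RefSeq genes. Of the 15, 12 were large subunit genes. A value above 0 in all 4 pairs was found for 3 members, Mrpl45, Mrps21 and Mrpl24, or 3.90%, against 15.3% of all genes and 17.4% of the RefSeq genes. The range of the 4 pair means, with a median of 0.45, exceeded the size of the oxygen change in 75 of the 77 genes, or 97.4%. Over all genes the median range was 0.68 and the share 92.0%.

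In the small subunit, Mrps2 stood lowest. It encodes the counterpart of the bacterial S2 protein, and defects of the human gene are known to impair oxidative phosphorylation. Its log2 level, relative to the 75th percentile of each array, was 2.52, 2.26, 2.42 and 2.71 in normoxia replicates 1 to 4 and 2.08, 1.64, 2.00 and 2.42 in the hypoxia replicates of the same numbers. The level was lower at 5% oxygen in every pair, by more than the spread of the pair differences, yet hypoxia 4 lay at the level of normoxia 3, so the groups overlapped. The change was -0.44 with a standard error of 0.13, or 1.36-fold lower, with an adjusted p of 0.11 in the block fit and 0.655 without the block. A second, dimmer probe of Mrps2 gave -0.46. With trended and robust moderation the adjusted p was 0.037.

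Mrps11, a protein of the subunit's platform, followed at -0.35 with a standard error of 0.16. Its levels were 2.20, 1.65, 1.92 and 2.08 in normoxia and 2.11, 0.89, 1.502 and 1.97 in hypoxia. The pair differences were uneven, with -0.76 in pair 2 and -0.10 and -0.11 in pairs 1 and 4, and the adjusted p was 0.286.

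Mrps22, a mitochondria-specific protein whose loss in patients is known to deplete the small subunit, had a change of -0.28 with a standard error of 0.15. Levels were 3.102, 2.78, 2.85 and 2.96 in normoxia and 2.83, 2.60, 2.22 and 2.93 in hypoxia. Hypoxia 3 was the lowest of the 8, and the adjusted p was 0.36. Mrps27, a pentatricopeptide repeat protein, had a change of -0.23, with levels of 1.403, 0.64, 1.11 and 1.27 in normoxia and 1.43, 0.10, 0.75 and 1.255 in hypoxia. The cultures of pair 2 were the lowest at both oxygen levels, while pairs 1 and 4 hardly differed.

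On the upper side of the small subunit, Mrps21 was higher at 5% oxygen in all 4 pairs. Its levels were 4.91, 4.50, 4.67 and 4.23 in normoxia and 5.01, 4.61, 4.89 and 4.58 in hypoxia, a change of 0.19 with a standard error of 0.13 and an adjusted p of 0.488. The groups overlapped widely, since the donors spread over a larger range than the pairs differed. Mrps33 had a change of 0.18 and Mrps14 of 0.06, but the dimmer probe of Mrps14 gave -0.20. Mrps25 lay at 0.05 with the brighter probe and at -0.25 with the dimmer one, and it was below 0 under median scaling and normexp as well.

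Mrps12, the counterpart of the S12 protein of the decoding centre, lay at -0.03 with a 95% interval from -0.36 to 0.31. The mitochondrial ribosome has 3 relatives of bacterial S18, of which Mrps18c and Mrps18b sit in the small subunit and Mrps18a, despite its symbol, in the large one. Their changes were -0.20, -0.17 and -0.19, each with a standard error of 0.15, and their adjusted p ran from 0.517 to 0.622. Pair 2 was above 0 for Mrps18c and Mrps18b and pair 3 for Mrps18a, so none kept 1 direction with the probe used. The dimmer probe of Mrps18b was below 0 in every pair, with a change of -0.45. Mrps36, now known as a subunit of the 2-oxoglutarate dehydrogenase complex rather than a ribosomal protein, had a change of 0.07 and an interval from -0.26 to 0.40.

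**Figure D2:**
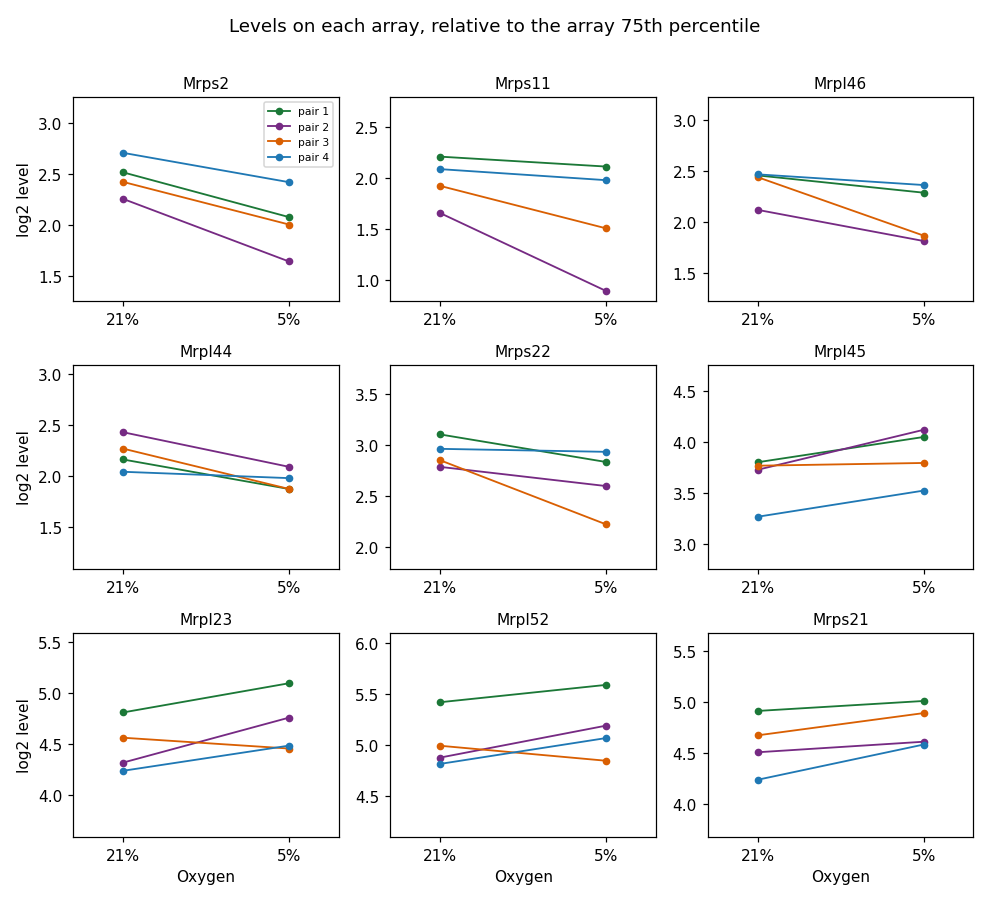
Log2 level of 9 mitochondrial ribosomal protein genes on each of the 8 arrays, relative to the array's 75th percentile, at 21% and 5% oxygen. Lines join the cultures of 1 pair and each panel spans 2 log2 units. Mrps2 slopes down in every pair, from 2.26 to 1.64 in pair 2 and from 2.71 to 2.42 in pair 4, and Mrpl45 slopes up in every pair, by as little as 0.03 in pair 3.

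In the large subunit, the peptide exit tunnel held genes at both ends of the range. Mrpl45, which lines the tunnel exit and anchors the ribosome to the inner membrane, had levels of 3.80, 3.73, 3.77 and 3.27 in normoxia and 4.05, 4.12, 3.80 and 3.53 in hypoxia. The level was higher at 5% oxygen in every pair, while normoxia 1 to 3 lay above hypoxia 4. The change was 0.23 with a standard error of 0.14 and an adjusted p of 0.406. Mrpl23, the counterpart of the L23 protein beside the exit, lay at 0.22, with 3 pairs above 0 and pair 3 at -0.11. Mrpl44, which carries a ribonuclease III-like fold and whose human gene is known for mutations in cardiomyopathy, lay at -0.27 with a standard error of 0.13. Its levels were 2.16, 2.43, 2.26 and 2.04 in normoxia and 1.87, 2.09, 1.87 and 1.98 in hypoxia. It was lower in every pair, and hypoxia 2 lay above normoxia 4, with an adjusted p of 0.323. Over the 7 genes of the tunnel and anchor the median was -0.05, with 4 lower and 3 higher.

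At the central protuberance, the crest of the large subunit, 6 of 8 genes were lower and the median was -0.08. Mrpl46 was lowest of these, with levels of 2.46, 2.12, 2.44 and 2.47 in normoxia and 2.29, 1.82, 1.87 and 2.36 in hypoxia. Every pair was below 0 and pair 3 was lowest at -0.57, but hypoxia 1 and 4 lay above normoxia 2. The change was -0.29 with a standard error of 0.14 and an adjusted p of 0.32. Mrpl52 and Mrpl48 of the same region lay at 0.15 and 0.14, each above 0 in pairs 1, 2 and 4 and below it in pair 3, and quantile normalization brought Mrpl52 to 0.0016. Mrps30, a large subunit protein despite its symbol, lay at -0.08 with an interval from -0.39 to 0.22.

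The stalk and its surroundings, where translation factors bind, had a median of -0.04 over 5 genes, with 4 lower. Mrpl12, the stalk protein also known to bind the mitochondrial RNA polymerase, had levels of 5.43, 4.84, 5.19 and 5.08 in normoxia and 5.62, 4.65, 4.82 and 5.06 in hypoxia. The pairs split in sign, and the change was -0.09 with an interval from -0.43 to 0.25. Mrpl10, at the base of the stalk, was lower in all 4 pairs, at -0.24 with a standard error of 0.13 and an adjusted p of 0.365. Mrpl58, a peptidyl-tRNA hydrolase built into the large subunit, lay at -0.10, and at 0.01 without pair 3.

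Among the other large subunit genes, Mrpl35 and Mrpl1 lay at -0.28 each and Mrpl37 at -0.27, all below 0 in every pair, with adjusted p from 0.354 to 0.365. Mrpl35 and Mrpl1 correspond to bacterial L35 and L1, the latter on the stalk by the exit site, while Mrpl37 is found only in mitochondria. Mrpl14, at the face that meets the small subunit, was at the other end. Its levels were 5.04, 4.40, 4.67 and 4.61 in normoxia and 5.33, 5.00, 4.51 and 4.79 in hypoxia, a change of 0.23 with a standard error of 0.16 and an adjusted p of 0.488. Pair 3 ran against the other pairs at -0.16. The probe used for Mrpl43 was measured in 3 pairs, because its spot on the array of normoxia 3 was flagged. It lay at 0.11 with a standard error of 0.17. A dimmer probe of Mrpl43, measured in every pair, gave -0.24 and was below 0 in each.

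The 4 hypoxia arrays all lay below the 4 normoxia arrays in 1 of the 77 genes, against 1.67% of all genes, and all above in 0, against 3.15%. That gene, named here after its values were seen, was Mrpl19, with 1.78, 1.83, 1.74 and 1.84 in normoxia and 1.47, 1.64, 1.67 and 1.66 in hypoxia. The gap was narrow, and the change of -0.19 with a standard error of 0.13 had an adjusted p of 0.496. Mrpl21 could not be tested. Its probe was well above background on 2 normoxia arrays and 1 hypoxia array.

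The members were also split by whether bacteria have a counterpart of the protein. Mrpl55, Mrps28, Mrps18a, Mrps18b and Mrps36 were placed in no class. The 28 tested large subunit genes with a counterpart had a median change of -0.10, with 20 lower, and the 20 mitochondria-specific ones -0.02, with 11 lower. In the small subunit the 15 genes with a counterpart had a median of -0.08, with 11 lower, and the 9 mitochondria-specific ones -0.06, with 6 lower. None of these 4 classes held a gene past the threshold. The mitochondrial ribosomal proteins with other names, Dap3, Ptcd3, Gadd45gip1, Chchd1 and Aurkaip1, had a median of -0.02, and their changes ran from -0.27 for Ptcd3 to 0.11 for Dap3.

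Dimmer probes had lower changes. Across the 77 genes, the mean log2 signal and the change correlated with a Pearson r of 0.60 and a Spearman rho of 0.56, against -0.08 over the 16050 RefSeq genes tested. The nuclear respiratory chain subunits had an r of 0.71 and a rho of 0.59, and the cytosolic ribosomal proteins 0.32 and 0.37. After quantile normalization the r and rho were 0.18 and -0.12 for the respiratory chain and -0.54 and -0.34 for the cytosolic ribosomal proteins. After cyclic loess the r of these lists was 0.61 and 0.04. These are correlations across genes measured on the same 8 arrays, and brightness depends on the probe as well as on the transcript. For the members the r was 0.45, 0.59, 0.03 and 0.58 in pairs 1 to 4, so pair 3 lacked it. The members' r was 0.34 after quantile normalization and 0.48 after cyclic loess. The dimmest 26 genes had a median change of -0.15, with 22 lower, the middle 26 a median of -0.03 and the brightest 25 a median of 0.00. RefSeq genes in the same 3 ranges of signal had medians of -0.05, -0.03 and 0.06.

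For 22 members a second probe passed the filter. The brighter probes had a median change of -0.04 and the dimmer ones of the same genes -0.21. The dimmer probe had the lower change in 15 of 22, or 68.2%, close to the 65.2% of the 3582 RefSeq genes with 2 kept probes. In 8 genes the probes differed in sign, as in Mrpl15, where they gave 0.12 and -0.40. Dimmer probes of Mrpl22 and Mrps18b gave -0.49 and -0.45, beside -0.20 and -0.17 from the brighter ones. At an unadjusted p under 0.05 there were 5 dimmer probes of the 22, or 22.7%, against 23.4% of the 3582 RefSeq genes, and 1 brighter probe. After adjustment 0 of the 22 dimmer probes passed, against 189 of the 3582.

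**Figure D3:**
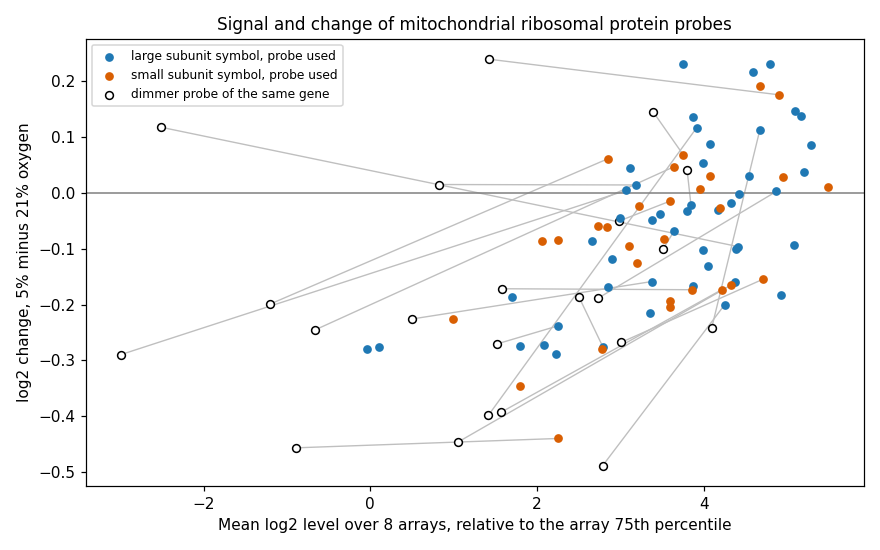
Mean log2 level over the 8 arrays, relative to the array's 75th percentile, on the horizontal axis, and log2 change at 5% minus 21% oxygen on the vertical axis, for the 77 genes, with large subunit symbols in blue and small subunit symbols in orange. White circles are the dimmer probes of 22 genes, joined by grey lines to the probe used. Most points at the dim end lie below 0, and the correlation over the filled points is 0.60.

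Genes that serve the mitochondrial ribosome were read from the same fit. Counts for these lists are of genes past an adjusted p of 0.05 in the block fit. Of 14 mitochondrial translation factors 0 passed and the median was -0.06. Among them Mrrf, the ribosome recycling factor, lay at -0.46 with an adjusted p of 0.182 and Tsfm, the exchange factor of elongation factor Tu, at -0.26 with 0.314. Of 19 mitochondrial aminoacyl-tRNA synthetases 0 passed, with 16 lower and a median of -0.10. Mars2, which charges the methionine tRNA, lay at -0.52 with an adjusted p of 0.0772, and under median scaling it passed at -0.58 with 0.0468.

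Of 25 assembly factors and rRNA-modifying enzymes, 0 rose and 1 fell, with 18 lower and a median of -0.14. The gene that fell was Fastkd2, an RNA-binding protein needed for the 16S ribosomal RNA. Its levels were -4.28, -4.40, -4.70 and -3.51 in normoxia and -5.12, -6.50, -5.51 and -4.10 in hypoxia. These are dim values, and on hypoxia 2 the lowest spot well above background lay at -7.17. Pair 2 differed by -2.10 and the other pairs by -0.59 to -0.85. The change was -1.09 with a standard error of 0.25 and an adjusted p of 0.044, lower in 4 of 4 pairs although hypoxia 4 lay above normoxia 1 to 3. With normexp the change was smaller, at -0.63 with an adjusted p of 0.0336. The call ended in 8 of the alternatives, where the change lay between -1.09 and -1.18, among them the fit without the block at 0.566, quantile normalization at 0.0674, and leaving out pair 1 at 0.088 or pair 3 at 0.152. Of 16 genes of mitochondrial transcription and RNA processing 0 passed and the median was -0.10. Polrmt, the mitochondrial RNA polymerase, lay at -0.48 with an adjusted p of 0.112.

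**Figure D4:**
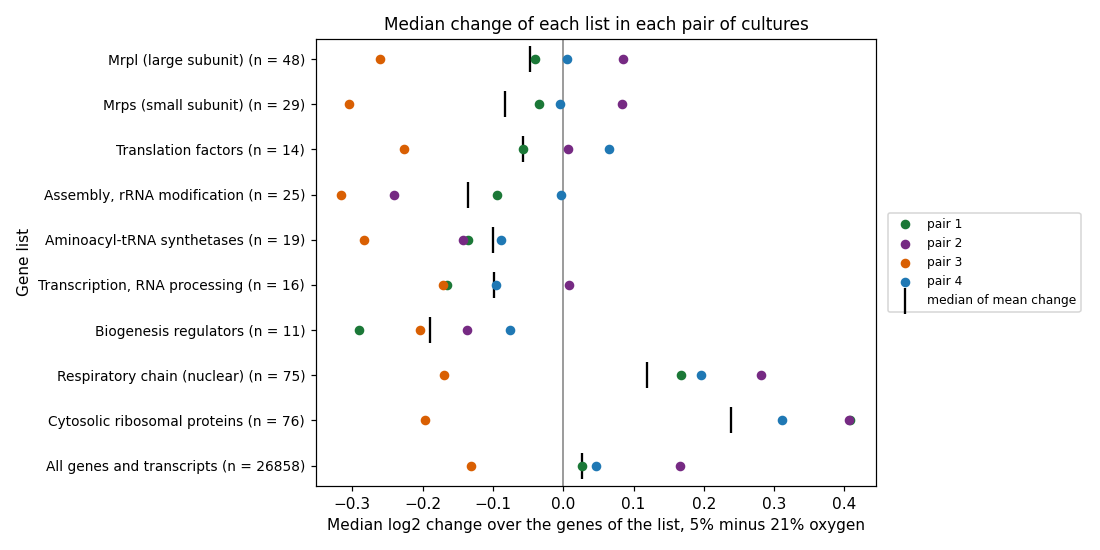
Median log2 change at 5% minus 21% oxygen over the genes of each list, with 1 row per list and n the number of genes tested. Coloured points are the 4 pairs and black bars the median of the mean change; pairs 1 and 2 coincide for the cytosolic ribosomal proteins. Pair 3 lies below 0 in every row, at -0.13 for all genes, and the cytosolic ribosomal proteins and the respiratory chain lie above 0 in the other pairs, with list medians that turn below 0 under quantile normalization.

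Of 76 cytosolic ribosomal protein genes tested 0 passed. The mean change was above 0 in 76, with a median of 0.24, although 62 of the 76 were below 0 in pair 3. The 76 stayed above 0 under median scaling, cyclic loess and normexp, with medians from 0.14 to 0.23. Quantile normalization gave a median of -0.02 with 55 lower. Nuclear subunits of the respiratory chain, listed together with those of ATP synthase, also had 0 of 75 past the threshold, with 68 higher and a median of 0.12. Of the 75, Ndufab1 lay at -0.46, lower in every pair, and Ndufv3 at 0.48, with adjusted p of 0.12 and 0.161 in the block fit. The median of the 75 ran from 0.052 to 0.10 under median scaling, cyclic loess and normexp, and was -0.04 under quantile normalization. The mitochondrial ribosomal protein median stayed below 0 under these scalings. The difference between the lists was not tested. Transcripts of mitochondrial DNA were not analysed here.

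Nuclear genes for mitochondrial proteins are known to be driven by nuclear respiratory factor 1 (NRF1), by the ETS factor GABP, also called NRF2, and by YY1, together with coactivators of the PGC-1 family. The list of 11 regulators of mitochondrial biogenesis held genes of these factors and coactivators and also Esrra, Myc and Crebzf. None of the 11 passed, and their median was -0.19. Nrf1 lay at -0.28 with a standard error of 0.19, Gabpa at 0.02, Gabpb1 at -0.19, Yy1 at -0.02 and the coactivator Pprc1 at -0.41 with an adjusted p of 0.156. Crebzf lay at -0.53 with an adjusted p of 0.0864, and it passed with normexp at 0.0379 and with trended and robust moderation at 0.0202. Its change shrank to -0.19 with the mean over probes, with an adjusted p of 0.458, and to -0.098 with the second probe, with 0.782.

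RefSeq promoters of build GRCm38.p6, 250 bases before to 50 after the start, were at hand for 69 of the 78 genes. The motif of NRF1, GCGCA and GCGC with any base between them, stood on either strand in 13 of the 69, or 18.8%, against 5.19% of 27025 genes. The motif CCGGAAG of GABP stood in 26, or 37.7%, against 9.93%, and GCCATNTT of YY1 in 21, or 30.4%, against 6.96%. At least 1 of the 3 was present in 47 promoters and all 3 in 0. The core ACGTG of the HIF element, which also lies within the E-box CACGTG, stood in 16, or 23.2%, close to the 21.8% of all genes. The E-box stood in 5, or 7.25%, against 8.09%, and CCAAT in 27, or 39.1%, against 41.1%. A match describes the letters and is not a measured binding site.

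Promoters with a motif belonged to genes on both sides of 0. Tested genes with the NRF1 motif had a median change of -0.05, with 7 lower and 6 higher, and ran from -0.27 for Mrpl44 to 0.23 for Mrpl45. Those with the GABP motif had a median of -0.05, with 16 lower and 9 higher. Those with the YY1 motif had a median of -0.11, with 16 lower and 4 higher. The 22 tested genes with none of the 3 had a median of -0.07 and included Mrps2. The following stretches of 120 bases end at the base before the start and are written 5′ to 3′ along the gene, with the motif in capitals. Mrps22 (chr9:98601680-98601799, minus strand) and Mrpl52 (chr14:54426789-54426908, plus strand) share the GABP motif and lay at -0.28 and 0.15. Mrpl12 (chr11:120484517-120484636, plus strand) shows the NRF1 motif.
Mrps22: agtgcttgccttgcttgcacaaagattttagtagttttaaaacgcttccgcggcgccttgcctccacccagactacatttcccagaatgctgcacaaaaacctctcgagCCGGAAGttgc
Mrpl52: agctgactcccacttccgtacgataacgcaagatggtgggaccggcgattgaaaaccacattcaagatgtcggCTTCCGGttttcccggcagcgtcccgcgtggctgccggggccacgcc
Mrpl12: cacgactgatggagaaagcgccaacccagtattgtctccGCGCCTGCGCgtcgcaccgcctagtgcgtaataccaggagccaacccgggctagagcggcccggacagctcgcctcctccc

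Many of the genes share their start region with a neighbour read the other way. Within 1000 bases, 26 members had such a partner, and in 22 pairs of genes both partners were tested. The change had the same sign in 9 of the 22, and 0 partners passed the threshold. Mrpl46 and Mrps11 are partners of each other, with 41 bases between their starts, and both were among the lowest of their subunit, at -0.29 and -0.35. The longer promoter of Mrps11 used for the counts holds the YY1 motif, and that of Mrpl46 none of the 3. The shared stretch between the starts (chr7:78783090-78783130, plus strand, read toward Mrps11) holds none of them.
Mrpl46 to Mrps11: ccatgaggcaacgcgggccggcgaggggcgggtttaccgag
Elsewhere partners went apart, as for Mrpl49 at -0.28 and its neighbour Fau, a cytosolic ribosomal protein precursor, at 0.24.

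The oxygen labels and the cell type were checked on other genes. Of 10 HIF target genes 8 rose and 0 fell in the block fit, with a median change of 2.20, and 1 rose without the block. Egln3, a HIF prolyl hydroxylase, was higher in 4 of 4 pairs, at 1.73 with a standard error of 0.15 and an adjusted p of 0.00146. All 10 neural stem cell markers were measured, with 0 past the threshold. Their summed level, in multiples of each array's 75th percentile, ran from 126 to 223 in normoxia and from 142 to 274 in hypoxia. Neuron markers summed to 16.4 to 19.6 in normoxia and 18.1 to 23.4 in hypoxia, with 2 of 8 risen. Astrocyte markers ran from 77.5 to 149 and from 101 to 192, with 1 of 7 risen, and oligodendrocyte lineage markers from 64.3 to 105 and from 80.4 to 117, with 2 of 7 risen. Microglia markers ran from 2.47 to 6.17 and from 2.78 to 5.90, with 0 of 6 called. Endothelial and mural markers ran from 2.99 to 13.505 and from 2.66 to 6.51, with 1 risen and 3 fallen of 6, and meningeal fibroblast markers from 1.13 to 5.19 and from 2.18 to 10.1, with 4 risen and 1 fallen of 6. The sums are linear, so the brightest genes weigh most and the sums do not measure amounts of cell types. In normoxia, mean log2 levels were 3.72 for Map2, 5.56 for Olig1 and 4.65 for Olig2, the brightest of their lists. The median log2 change was 0.11 over the neuron markers and 0.90 over the oligodendrocyte lineage markers, 6 higher and 1 lower. The part of these cell types in the values of the ribosomal protein genes was not tested.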

How the data were processed

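RNA of 8 cultures was measured on 8 arrays of 1 slide read in 1 scan, so no slide batch could be tested. Scanner intensity values deposited by the authors came from Agilent Feature Extraction, version 10.7.3.1 in the submitters' processing notes. They are background-subtracted and unscaled between arrays, per the file headers. A value table in log2 units, also deposited, served as an alternative. On each array 99.8% of its probes lay within 0.01 of the signal scaled to the 75th percentile and centred per probe. It therefore largely repeats the main scaling. The 75th percentiles of the signal ran from 1909 to 7352, and 64.4% to 73.9% of spots were well above background. The number of arrays limits the precision.

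Control and flagged spots were left out, and values were log2 of the signal minus each array's 75th percentile. The filter asked that 3 of the 4 arrays in either group show a probe well above background, which kept 37652 of 55681. Accessions were matched to RefSeq symbols of GRCm38.p6 for 27235 probes, and 28446 kept their accession. The kept probe with the highest mean stood for a gene. Of 84 RefSeq symbols that fit the naming rule, 6 are pseudogenes without a probe, copies of Mrpl23, Mrpl27, Mrpl48 and Mrps36, whose signal may include that of the copies.

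The oxygen levels were compared by lmFit and eBayes (limma 3.58.1, R 4.3.3), and p-values were adjusted by Benjamini and Hochberg's method over 26858 genes, with a threshold of 0.05. The main fit had the replicate number as a block, since each number marks an experiment with its own donors, per the series' design text. Deviations from the group means correlated at 0.76, 0.51, 0.38 and 0.66 within the pairs. Between pairs they were below 0 except for hypoxia 3 with normoxia 2, at 0.31, close to the value of pair 3. Without the block 24 genes were called in place of 1487. The members, lists and roles were chosen with earlier results of these data known, and no p-value was computed over them. Genes named were those past the threshold, the 5 with the smallest p per subunit symbol and direction, and members with a role of their own. Per list, up to 4 genes past the threshold or else the 2 with the smallest p were picked, and not all of these were named. Other genes named were chosen after their values were seen. Alternatives covered the block, scaling, background correction, the value table, the filter, the probe choice, flags, moderation and leaving out each pair. Cyclic loess was added after seeing the data.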

Additional observations from a re-analysis of the deposited data

Results flagged for a closer look

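Of 81 groups of 4 values examined for the named genes, 7 held 1 value far from the other 3, by a gap above the 95% critical value of Dixon's test, or 8.64%. Chance flags about 1 in 20 such groups. Pair 3 stood apart for Mrpl1, with a change of -0.65, and for Mrpl58, with a change of -0.44, and both were lower there than in the other pairs. Normoxia 4 was low for Mrpl45, at a log2 level of 3.27, and for Mrps18a, at 3.42. Normoxia 2 was low for Mrpl46, at 2.12, and for Mrps12, at 3.97. Hypoxia 2 was low for Mrpl37, at 1.30.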

How the results depend on the processing

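The count of members past the threshold was 0 in the main fit and in 16 of the 17 alternatives, and 1 with trended and robust moderation. The count of all genes moved from 1487 to 24 with no replicate block, to 450 with no filter on dim probes and to 2300 with trended and robust moderation, and ran from 389 to 1453 when each pair was left out, lowest without pair 3. The member median ran from -0.10 to 0.012 when each pair was left out and was above 0 without pair 3. Leaving out each pair moved Mrpl58 from -0.15 to 0.013 and Mrps12 from -0.13 to 0.066, both reversed without pair 3, and Mrps25 from -0.049 without pair 2 to 0.17. Mrps14 reversed to -0.069 with the mean over probes and to -0.20 with the second probe. Mrps25 reversed to -0.0072 under median scaling, to -0.012 with normexp, to -0.099 with the mean over probes and to -0.25 with the second probe. Quantile normalization brought Mrpl14 to 0.11, Mrpl23 to 0.14 and Mrps33 to 0.067. The cause was not tested. The replicate block changed no call among the members. With 4 pairs, the 95% intervals of the members reached 0.33 to either side at the median.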
